A study of Mus musculus with 5 samples.

Results

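The muscarinic acetylcholine receptors and the genes that make, load, take back and break down acetylcholine were followed in the retinas of form-deprived mice. The group was chosen by gene symbol and held 10 genes of the 33636 in the count table: the receptors Chrm1, Chrm2, Chrm3, Chrm4 and Chrm5, the starburst cell genes Chat, Slc18a3 and Slc5a7, and the cholinesterases Ache and Bche. Each symbol had a single row. Retinas came from male wild-type C57BL/6J mice, an inbred laboratory strain, at P42. In the form-deprivation myopia (FDM) group the right eye was covered with a head-mounted diffuser goggle for 2 weeks from P28, and the uncovered left eye of the same animals was the control. There were 2 FDM and 3 control libraries of poly-A RNA. The eyes of both groups were dilated with tropicamide, itself a muscarinic antagonist, for the refraction measured at P28, P35 and P42, so both groups shared this exposure. The labels give refractive errors at P42 of 0.976 and 0.2745 D for the FDM eyes and of 2.4455, 3.1505 and 2.465 D for the control eyes. By the numbers of the count table, FDM 1 and Control 1 are eyes of one mouse and FDM 3 and Control 3 of another, while Control 2 has no partner. The labels call the second FDM library number 2, whereas the count table and the study's supplement call it number 3, which is used here.

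Acetylcholine in the retina is released by starburst amacrine cells, a pair of mirror-image populations best known for computing the direction of motion. Choline acetyltransferase (Chat) makes the transmitter, the vesicular transporter Slc18a3 (VAChT) loads it into vesicles, the transporter Slc5a7 (CHT) recovers choline at the terminal, and acetylcholinesterase (Ache) ends the signal. The transmitter acts on muscarinic receptors, which are G protein-coupled, and on nicotinic receptors, which are ion channels. Among the muscarinic receptors, Chrm1, Chrm3 and Chrm5 couple mainly to Gq, and Chrm2 and Chrm4 to Gi and Go. Atropine, which blocks all of them, is used as eye drops to slow myopia in children, and its site of action in the eye is debated.

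Chat and Slc18a3 share one locus on chromosome 14 of GRCm38. Slc18a3 (32462438 to 32464850, minus strand) lies whole within an intron of Chat (32408203 to 32465989, minus strand), and the start of Slc18a3 lies 1139 bases downstream of the start of Chat. No exon bases of the genes overlap, so reads of the spliced RNA of one could be told from the other. Unspliced RNA of Chat would hold the sequence of Slc18a3, and its part in the counts was not tested. The sequences before the starts of these transcripts, from RefSeq on GRCm38.p6, are shown because they belong to the starburst pair whose RNAs are compared below. Capitals mark matches on either strand to any of 5 motifs: the GC box GGGCGG, the TATA box TATAAA, the E-box CANNTG, the cAMP response element TGACGTCA and the homeodomain core TAATTA. The first is 170 bases at chr14:32465990-32466159, and the second is 250 bases at chr14:32464851-32465100.
Chat: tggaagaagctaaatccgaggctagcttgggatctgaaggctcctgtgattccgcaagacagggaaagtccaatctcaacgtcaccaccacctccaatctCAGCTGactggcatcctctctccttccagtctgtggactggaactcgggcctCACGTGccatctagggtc
Slc18a3: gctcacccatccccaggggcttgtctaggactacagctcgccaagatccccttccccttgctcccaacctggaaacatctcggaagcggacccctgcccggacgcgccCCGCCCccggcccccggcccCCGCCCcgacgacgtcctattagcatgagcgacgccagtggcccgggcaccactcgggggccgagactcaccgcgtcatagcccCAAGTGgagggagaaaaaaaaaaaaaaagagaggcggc
In the 250 bases before its RefSeq start, Chat held 2 E-boxes and no GC box, and Slc18a3 held 2 GC boxes and 1 E-box. An E-box occurred in 66.2% and a GC box in 32.7% of the same windows of 32851 promoters, so both are common words. Neither window held a TATA box, a cAMP response element or a homeodomain core, which occurred in 12.4%, 1.55% and 4.84% of promoters, and the matches found did not overlap each other. Only the bases before both the RefSeq and the GENCODE start are printed for Chat.

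Levels are given as CPM, estimated counts per 1000000 counts of a library whose size was set by its total and its TMM factor. The 13 retinal marker genes were all detected and summed to between 36600 and 45400 CPM in every library. Library totals ran from 40599047 to 56534931 estimated counts, so that 3 counts, taken as the limit of detection, lay between 0.0526 and 0.0751 CPM. This limit covers counting error only. Markers of other tissues differed between libraries. The 7 lens markers found summed to 1960 CPM in FDM 3 and to 2.38 to 17.9 CPM elsewhere, and 7 of 7 were called higher in FDM eyes by the edgeR test used below, against 0.453% of all genes in that direction. The 7 markers of the retinal pigment epithelium (RPE) summed to 201 CPM in Control 2 and 162 in Control 3 against 42.9 to 55.4 in the other libraries, and 6 of 7 were called lower in FDM eyes, against 1.16% of all genes. The 6 skeletal muscle markers summed to 56.4 CPM in Control 3 against 6.33 to 7.69. Smooth muscle markers, of interest because iris and ciliary muscle carry muscarinic receptors, ranged only from 16.2 to 23.6 CPM, and the 4 blood markers from 32.2 to 46.8 CPM. The part of these tissues in the values below was not tested, beyond the values given.

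The levels of the 10 genes were ranked per length of exon, the scale on which genes can be compared with each other. Ache was by far the most abundant at 22.3 ± 1.71 CPM per kilobase (SD, n = 5 libraries), 5.26-fold above the next gene. The starburst genes followed, with Slc18a3 at 4.23 ± 0.325, Chat at 3.48 ± 0.230 and Slc5a7 at 1.91 ± 0.342 CPM per kilobase. The muscarinic receptors Chrm3, Chrm1, Chrm2 and Chrm4 came next, at 1.82 ± 0.0707, 1.40 ± 0.132, 1.23 ± 0.273 and 1.05 ± 0.137. Butyrylcholinesterase (Bche), the less specific cholinesterase, stood at 0.344 ± 0.0391, and Chrm5 at 0.0557 ± 0.0351. The ranges over libraries overlapped between Slc18a3 and Chat, between Slc5a7 and Chrm3, between Chrm1 and Chrm2 and between Chrm2 and Chrm4, so these neighbours were not separated beyond their spread between libraries. Within each library, however, Slc18a3 stood above Chat in 5 of 5, Chrm1 above Chrm2 and Chrm2 above Chrm4 in 4 of 5 each, and Slc5a7 above Chrm3 in 3 of 5. With the length of the longest transcript in place of the exon union, Chat (5.72 CPM per kilobase) stood above Slc18a3, and Chrm3 (2.63) above Slc5a7. The gene models of Chrm4 and Chrm5 hold the coding length only, 1440 and 1599 bases, which limits the comparison of these with the other receptors.

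**Figure D1:**
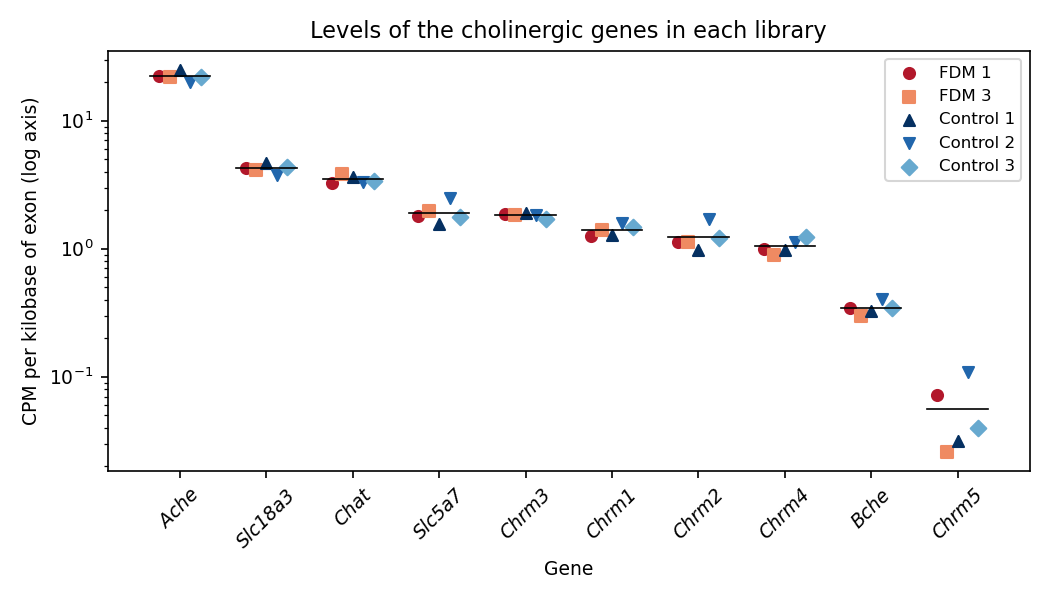
Level of each cholinergic gene in CPM per kilobase of exon, on a log axis, in the 2 FDM and 3 control libraries (symbols), with the mean of the 5 libraries as a line. Ache lay near 22.3 and Chrm5 near 0.0557, and in none of the 10 genes did both FDM symbols lie above or below all control symbols.

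Within the muscarinic family, the RNA per length was spread over 4 receptors. Chrm3 made up 33.0 ± 3.43% (SD, n = 5) of the summed level per kilobase, Chrm1 25.2 ± 1.05%, Chrm2 between 19.1 and 26.8% and Chrm4 18.8 ± 1.86%, while Chrm5 contributed 0.978 ± 0.541%. These shares use the exon union and depend on it. By the longest transcript Chrm3 stood at 2.63 CPM per kilobase against 1.44 for Chrm1, 1.31 for Chrm2 and 1.05 for Chrm4, which makes its share larger. The shares in FDM and control eyes were close for each receptor, for example 34.8% and 31.9% for Chrm3 and 25.1% and 25.2% for Chrm1. All 5 receptors are encoded by a single coding exon in the annotation, as is Slc18a3, whereas the coding models of Chat ran up to 14 exons and those of Slc5a7 up to 8.

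To ask whether form deprivation changed the RNA of this system, FDM and control eyes were compared with edgeR's quasi-likelihood test over 17432 genes, those for which 2 or more libraries held over 10 counts. Chrm5 did not pass this filter, and 9 of the 10 genes were tested. None of them (0 of 9) had an unadjusted p under 0.05, the threshold of the study, against 1.61% of all genes tested, and 0 of 9 did with DESeq2 or limma. The unadjusted p ran from 0.261 for Chrm4 to 0.873 for Slc18a3, and every adjusted p over all genes was 1.0. For none of the 10 did the FDM libraries lie wholly above or wholly below the control libraries, an arrangement that 10.6% of all genes tested showed. Log2 fold changes lay between -0.24 and 0.05, with a median of -0.05 for the 9 genes and -0.01 for all genes tested. In bulk tissue, a change in the number of cells of a type and a change in RNA per cell cannot be told apart.

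**Figure D2:**
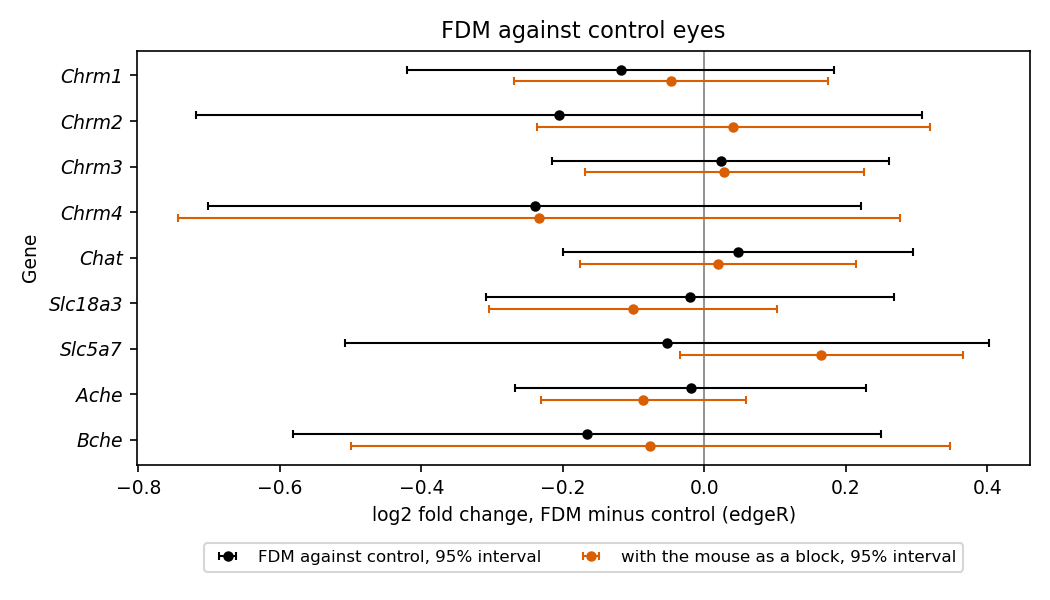
Log2 fold change of FDM minus control eyes from edgeR for the 9 genes tested (points), with 95% intervals, without the mouse (black) and with the mouse as a block (orange). All 18 intervals include 0, from -0.74 to 0.40 at the outer ends.

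Among the Gq-coupled receptors, Chrm3 (chromosome 13, 9875486 to 10360847), the main receptor of ocular smooth muscle and glands, was the steadiest gene of the group. FDM 1 held 503 estimated counts and FDM 3 held 548, while the controls 1 to 3 held 475, 648 and 508. This came to 11.6 and 11.4 CPM in FDM eyes and to 11.9, 11.4 and 10.7 CPM in control eyes, so that both FDM eyes lay within the control range. Its spread over the 5 libraries, 3.88% of the mean, was no wider than the 4.32% that counting alone gives. The fold change was 1.02, with a 95% interval of 0.861 to 1.20. Chrm1 (chromosome 19, 8663789 to 8683587), the main receptor of the forebrain, had 8.21 and 9.02 CPM in FDM eyes and 8.26, 10.2 and 9.56 in control eyes. FDM 1 was lowest and Control 2 highest, and the groups overlapped (fold change 0.922, 95% interval 0.748 to 1.14). Chrm5 (chromosome 2, 112479171 to 112480769) was barely detected. FDM eyes held 5 and 2 estimated counts and control eyes 2, 10 and 3, at or below the limit of 3 counts in 3 of the libraries. The pooled rate in FDM over control eyes was 0.737 with an exact binomial 95% interval of 0.254 to 1.92, which covers counting error only, so no difference was detectable at this depth.

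Of the Gi-coupled receptors, Chrm2 (chromosome 6, 36388084 to 36528414), known as the cardiac receptor, varied most among libraries of the 9 genes. Its level was 6.85 and 6.82 CPM in FDM eyes and 5.96, 10.3 and 7.35 CPM in the eyes of controls 1 to 3. The FDM eyes were almost equal, whereas the control eyes spanned the whole range, with Control 1 lowest and Control 2 highest. Its SD of 22.2% of the mean exceeded the 5.28% of counting error. The fold change was 0.867 (95% interval 0.608 to 1.24), and the log2 fold change of -0.21 turned to 0.05 when Control 2 was left out. Chrm4 (chromosome 2, 91927249 to 91928688) had the lowest fold change of the group. Its levels were 1.43 CPM in FDM 1 and 1.29 in FDM 3 against 1.40, 1.61 and 1.79 in Control 1, 2 and 3, so that Control 1 lay between the FDM eyes. With only 56 to 92 counts per library, its SD of 13.1% of the mean was close to the 11.8% expected from counting. The fold change was 0.847 (95% interval 0.615 to 1.17).

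The starburst genes did not differ in one direction. Chat had 668 and 862 estimated counts in FDM eyes and 678, 883 and 757 in control eyes. This gave 15.4 and 17.9 CPM in FDM eyes, which were the lowest and the highest of the 5 libraries, and 16.98, 15.5 and 15.9 in control eyes. The fold change was 1.03 (95% interval 0.871 to 1.23). Slc18a3, read from the same locus, had 10.3 and 9.94 CPM in FDM eyes and 11.2, 9.10 and 10.5 in control eyes, with a fold change of 0.986 (95% interval 0.808 to 1.20). The ratio of Chat to Slc18a3 counts was 1.49 and 1.80 in FDM eyes and 1.51, 1.70 and 1.52 in control eyes, so that it was highest in FDM 3 and in the unpaired Control 2. The promoters of these genes printed above stand beside RNAs whose SD over the 5 libraries was 6.61% of the mean for Chat and 7.67% for Slc18a3. Slc5a7 (chromosome 17, 54273590 to 54299034) had 10.1 and 11.0 CPM in FDM eyes and 8.84, 13.96 and 10.02 in control eyes. Control 2 stood above all other libraries and Control 1 below them, and both FDM eyes lay between (fold change 0.964, 95% interval 0.704 to 1.32). Without Control 2 its log2 fold change moved from -0.05 to 0.17.

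Among the cholinesterases, Ache (chromosome 5, 137287519 to 137294466) had the smallest counting error of the group, with 4446 to 5320 counts per library. It had 102.5 and 101.7 CPM in FDM eyes and 115.4, 93.3 and 101.9 in control eyes. The FDM eyes and Control 3 nearly coincided, with Control 1 above and Control 2 below them (fold change 0.987, 95% interval 0.831 to 1.17). Bche (chromosome 3, 73635808 to 73708415) had 2.33 and 2.00 CPM in FDM eyes and 2.20, 2.72 and 2.34 in control eyes. Its fold change was 0.891 (95% interval 0.668 to 1.19), with FDM 1 within the control range and FDM 3 below it. The exons of Ache share 98 bases, those of Chrm2 142 bases and those of Chrm1 329 bases with a noncoding gene on the opposite strand. The library kit did not mark strand, so reads there could not be told apart by strand. These noncoding genes were absent from the count table.

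Since each control eye belonged to a treated animal, the eyes of one mouse were also compared directly. Of the 9 genes, 4 had the same sign in both mice, Slc5a7 higher and Chrm1, Slc18a3 and Ache lower in the FDM eye, against 55.1% of all genes tested that had the same sign in both mice. Slc5a7 was higher in the FDM eye by 0.20 on the log2 scale in mouse 1 (exact 95% counting interval -0.0096 to 0.40) and by 0.14 in mouse 3 (-0.04 to 0.32). Ache was lower by 0.17 in the FDM eye of mouse 1, with a counting interval of -0.23 to -0.11. In mouse 3 the difference was -0.0026 (-0.06 to 0.06). Relative to the other libraries, Ache stood at 0.21 in Control 1 and at -0.0034 in FDM 1. The deviation of Control 1 rose with GC content, at a Spearman correlation of 0.481 across genes, as given below. With the mouse as a block, which takes both mice together, the log2 fold change of Ache was -0.09. It was -0.05 with the GC trend also taken out. The part of this trend in the pair was not tested. Chat went opposite ways, at -0.14 in mouse 1 (-0.30 to 0.02) and 0.17 in mouse 3 (0.03 to 0.31). Chrm4 was at 0.03 in mouse 1 and -0.47 in mouse 3 (-0.97 to 0.02), and Chrm2 at 0.20 and -0.11. The median size of these differences was 0.125 in mouse 1 and 0.108 in mouse 3 for the 9 genes, near the 0.103 and 0.0971 of all genes tested. In an edgeR fit that took the mouse as a block, 0 of 9 genes had an unadjusted p under 0.05, against 7.23% of all genes. The smallest was that of Slc5a7, whose paired log2 fold change was 0.17 (95% interval -0.04 to 0.37, adjusted p = 0.712 from edgeR). Counting intervals do not cover the variation between animals, and with 2 pairs the block fit has a single residual degree of freedom.

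**Figure D3:**
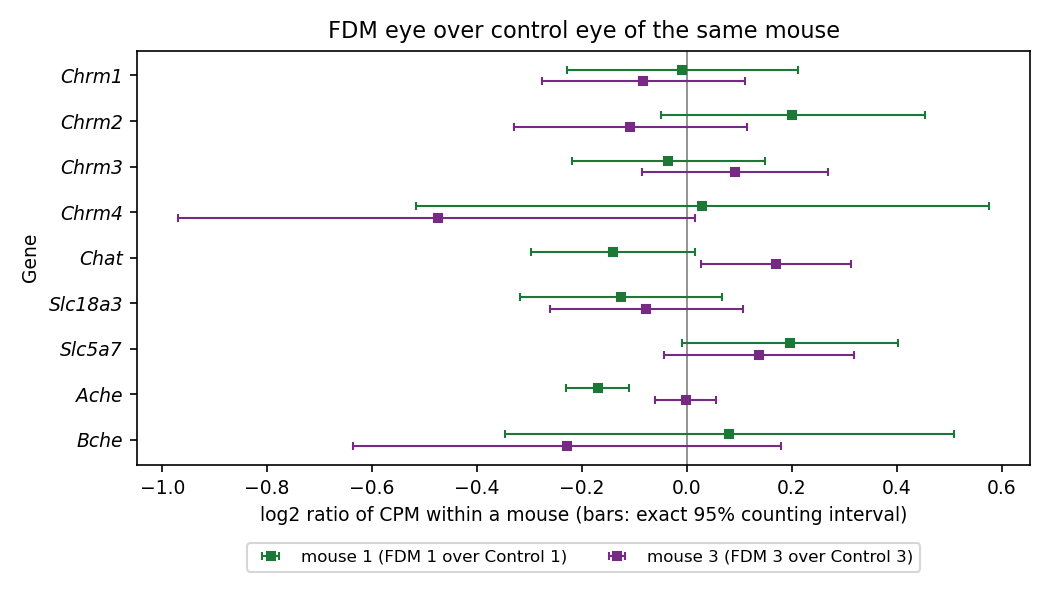
Log2 ratio of the FDM to the control eye of the same mouse for the 9 genes tested, in mouse 1 (green) and mouse 3 (purple), with exact 95% counting intervals. The intervals of Ache in mouse 1 and of Chat in mouse 3 leave out 0, and both intervals include 0 in the other mouse.

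The spread within the group was widest at Control 2, which was the highest or the lowest library for 7 of the 10 genes. It was highest for Chrm1, Chrm2, Chrm5, Slc5a7 and Bche and lowest for Slc18a3 and Ache. Chrm5 was near the limit of detection. The share of all genes with Control 2 at either end was not taken, so this is not shown to be particular to the group. Relative to the mean of the other 4 libraries, Control 2 stood at 0.61 on the log2 scale for Chrm2, 0.49 for Slc5a7 and 0.30 for Bche, and at -0.20 for Slc18a3 and -0.17 for Ache. The first 3 have the transcripts with the least GC of the group, 41.6%, 40.8% and 38.3%, and the last pair those with the most, 61.2% and 58.7%. The other genes tested, of intermediate GC, did not follow this order. By rising GC, Chrm3, Chrm1, Chat and Chrm4 stood at -0.0029, 0.22, -0.09 and 0.14 in Control 2. In the whole table the deviation of Control 2 fell as GC content rose. Across 14805 genes above a mean of 1 CPM, which are not independent replicates, the deviation of Control 2 had a Spearman correlation of -0.638 with GC content, against 0.481 for Control 1 and 0.157 to 0.192 for the other libraries. In the fifth of genes with the least GC, Control 2 lay 0.22 above the others in the median, and in the fifth with the most GC it fell by 0.18. RPE markers were high in Control 2 and in Control 3. In Control 3 the 9 genes ran from -0.11 for Chrm3 and Slc5a7 to 0.325 for Chrm4 relative to the other libraries, with Chrm2 at 0.0074. The part of GC content and of RPE in the spread was not tested. When the GC trend of each library was taken out, a step chosen after the data were seen, the standard error of Slc5a7 fell from 0.194 to 0.131, that of Chrm2 from 0.219 to 0.157 and that of Ache from 0.106 to 0.0654. It was smaller for 7 of the 9 genes and larger for Chrm1 (0.128 to 0.135) and Chrm4 (0.197 to 0.206). The trend was fitted to these same libraries, so the smaller standard errors are not a test of GC content. Again 0 of 9 genes had an unadjusted p under 0.05 from edgeR, and the log2 fold changes were 0.01 for Slc5a7, -0.14 for Chrm2 and -0.04 for Ache.

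**Figure D4:**
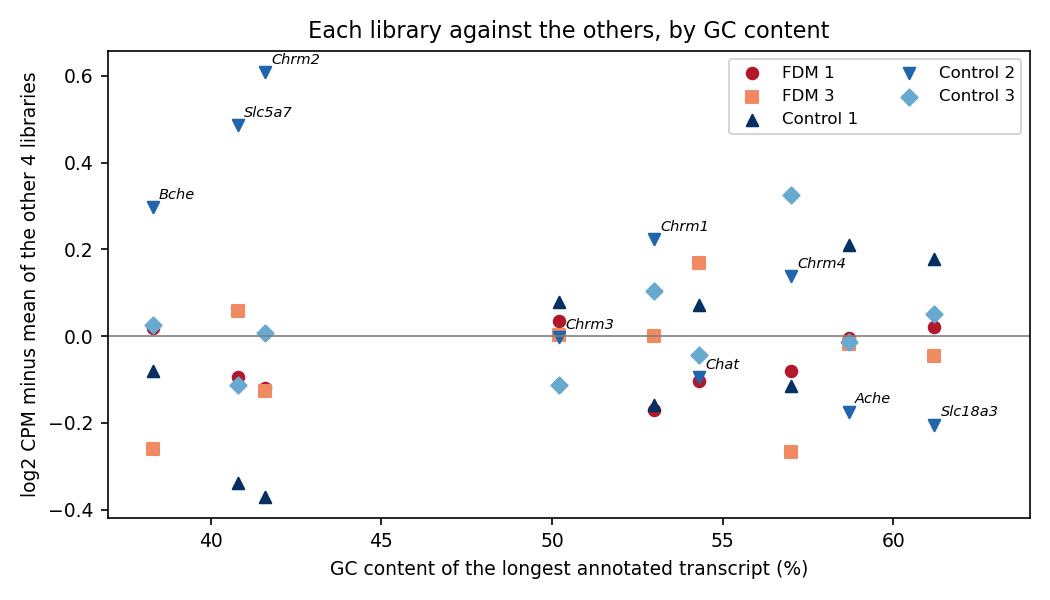
Log2 CPM of each library minus the mean of the other 4 libraries for the 9 genes tested, against the GC content of the longest annotated transcript, with names beside the Control 2 points. Control 2 stands at 0.61 for Chrm2 and 0.49 for Slc5a7 at low GC and at -0.20 for Slc18a3 at high GC. Control 1 has the opposite sign for these genes. At intermediate GC, Control 2 stands at 0.22 for Chrm1 and 0.14 for Chrm4, and at -0.0029 for Chrm3 and -0.09 for Chat.

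The wider cholinergic system was examined through 53 further genes in 8 lists, of which 48 passed the count filter. None of the 48 (0) had an unadjusted p under 0.05 in edgeR, against 1.61% of all genes, and their median log2 fold change was -0.02. Of the 11 neuronal nicotinic subunits, 9 were tested. The most abundant were Chrna6, Chrnb2 and Chrnb3. Chrna6, a subunit found in retinal ganglion cells, had 92.0 and 97.6 CPM in FDM eyes and 93.6, 110.7 and 116.6 in control eyes (log2 fold change -0.17, SE 0.11). Chrnb2 and Chrnb3 were at 0.03 and -0.04. Chrna3 was the single gene of the 48 whose FDM eyes lay below all controls, with a log2 fold change of -0.07, against 10.6% of all genes whose groups did not overlap, and it was named after its values were seen. The alpha subunits of cochlear hair cells, Chrna9 and Chrna10, did not pass the filter.

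Muscle-type subunits are given beside the traces of skeletal muscle in Control 3. Chrnb1 had 8.71 CPM there against 8.90 to 10.8 in the other libraries, and Chrna1 had 2.46 against 2.54 to 3.48. Both lay within counting error of the next library, which was 4.72% of the mean for Chrnb1 and 8.67% for Chrna1. Chrne, the adult muscle subunit, was at 0.140 to 0.229 CPM, with 0.168 in Control 3, and did not pass the filter. The part of skeletal muscle in these values was not tested. Nicotinic chaperones and modulators were level, with Lynx1, Ric3 and Tmem35a at -0.05, -0.0052 and -0.07 on the log2 scale. Of the proteins that anchor cholinesterase, Prima1, its neuronal membrane anchor, was at -0.02 and Colq, its collagen tail at the neuromuscular junction, at 0.57 with an SE of 0.55. Among genes of choline and acetyl-CoA metabolism, Acly was at -0.0025, Pdha1 at -0.04 and Chkb at 0.05.

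Downstream of the receptors, the Gq arm was tested with 8 genes and the Gi arm with 8. The most abundant of the Gq arm, Gna11, Gnaq and the phospholipase Plcb4, were at 0.0078, 0.06 and -0.04 on the log2 scale, and Gnao1, Rgs8 and Gnai2 of the Gi arm at 0.04, 0.01 and 0.05. In the block fit, 3 of the 8 genes of the Gq arm had a higher level in FDM eyes at an unadjusted p under 0.05, against 3.57% of all genes in that direction. They were the only ones higher among the 48 genes of all lists, and 1 of the 48 was lower. In either direction 7.23% of all genes were called. The 3 higher genes were Itpr1, the receptor for the second messenger IP3, at 0.26 (adjusted p = 0.619 from edgeR), and the phospholipases Plcb1 at 0.19 and Plcb4 at 0.17 (adjusted p = 0.654 for both). In mouse 1 they were higher by 0.46, 0.21 and 0.23, and in mouse 3 by 0.07, 0.17 and 0.10. With the GC trend taken out of the block fit they stood at 0.26, 0.17 and 0.14. Without the block, Itpr1 was at 0.05, Plcb1 at 0.03 and Plcb4 at -0.04, and with the eyes paired by the labels' numbers 0 of the 48 genes had an unadjusted p under 0.05 in the edgeR block fit. None held after adjustment over all genes, and Itpr1 and Plcb1 were named after their values were seen.

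Of 10 other genes of starburst cells, most of which other amacrine cells also express, 10 were tested and 0 called in edgeR without the block. The most abundant were Gad1, which makes the GABA that starburst cells also release, the potassium channel Kcnc1 and the transcription factor Isl1, at -0.02, 0.05 and 0.07 on the log2 scale. Sox2, a transcription factor of starburst cells and Müller glia, was lower in FDM eyes of both mice, by the block fit at -0.20 (adjusted p = 0.561 from edgeR), against 3.67% of all genes in that direction. Without the block it was at -0.13, and it too was named after its values were seen.

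**Figure D5:**
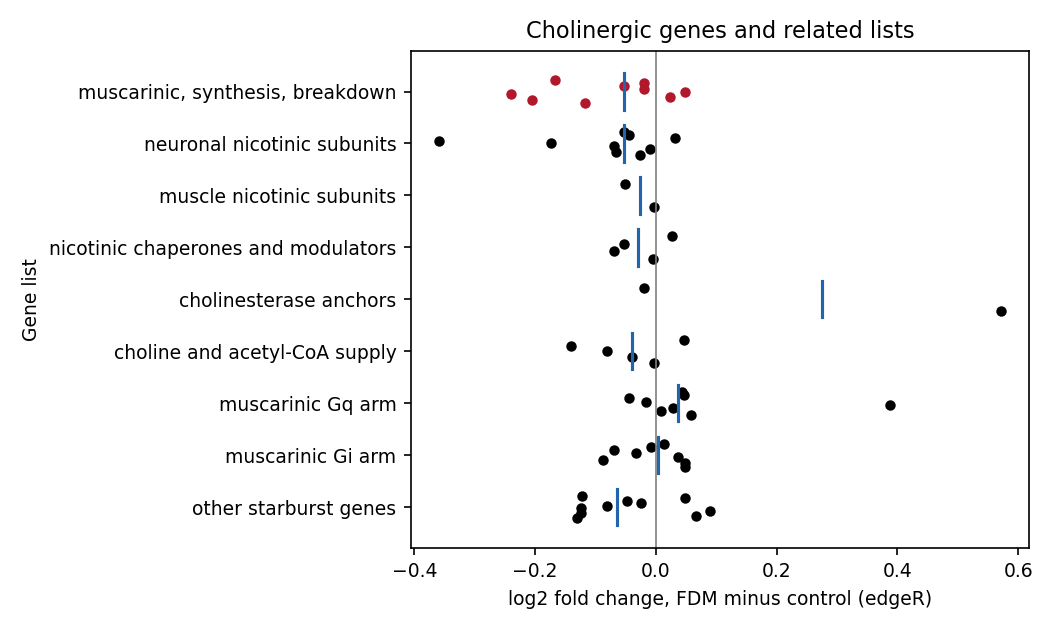
Log2 fold change of FDM minus control eyes from edgeR for the genes tested in the muscarinic, synthesis and breakdown group (red) and in 8 related lists (black), one point a gene, with the median of each list as a blue line. The points of most lists lie within 0.2 of 0, and the outer points at -0.36 and 0.57 are Chrna7 and Colq.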

How the data were processed

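The authors trimmed reads with Trimmomatic 0.39, quantified transcripts with Salmon 1.10.1 (labels: GRCm38, mm10) and deposited estimated counts per gene as whole numbers, together with a signal of counts normalized in DESeq2, whose factor differs between genes of a library. A further FDM library, with high read duplication, had been dropped before deposit. Groups were taken from the labels. The mouse pairing follows the numbers of the count table, which the labelled refractive errors, set against the interocular difference the study states, also fit, while the labels' own number does not. Control 1 and Control 3, at 2.4455 and 2.465 D, were too close for this fit to tell which of them partnered which FDM eye. For that the pairing rests on the numbers alone. Deviations of FDM 1 and Control 1 from their group means correlated at 0.282 and those of FDM 3 and Control 3 at 0.134, while FDM 3 and Control 2, the pair by the labels' number, correlated at 0.171, so that the correlations did not separate these pairings. With 2 FDM libraries their deviations are exact opposites, so these correlations are not independent of each other. No libraries were duplicates (chi-square per degree of freedom at least 11.6).

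The test was run on genes for which 2 or more libraries held over 10 counts, in edgeR 4.0.16 under R 4.3.3 (TMM, quasi-likelihood, no covariate). The SE is the log2 fold change over the square root of F, and intervals are 95%. DESeq2 1.42.0, limma 3.58.1 (log2 scale, pseudocount 1 or 0.1), other factors and filters, the mouse as a block, a GC correction and each library left out in turn were alternatives. The scripts were tested on simulated data. Lengths, positions and GC are from GENCODE M21 (GRCm38), in which 33586 identifiers were found. The genes and lists were chosen with earlier results of these data known. Named were the 10 genes and, from each list, those with an unadjusted p under 0.05 and the 3 most abundant. Exceptions, named after their values were seen, were Chrna3, Chrna7, Chrna9, Chrna10, Chrnd, Itpr1, Plcb1, Plcb2, Gnai3, Sox2 and Kcnc2. The samples of a group came from separate mice of the study.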

Additional observations from a re-analysis of the deposited data

How the results depend on the processing

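Across 13 alternatives and 5 fits that each left out a library, no fit called any (0) of the 9 genes at the unadjusted threshold of 0.05. The smallest p was 0.0688, for Chrm2 without Control 1. Several fold changes changed sign, all without passing the threshold. Most of these were near 0, but the log2 fold change of Chrm2 was -0.21 in the fit with no covariate. With the mouse as a block, the replicate block, the log2 fold change became 0.041 for Chrm2 and 0.17 for Slc5a7, and with the block and the GC correction 0.011 and 0.13. With the block by label numbers it was -0.016 for Chrm3 and 0.0014 for Slc18a3, and with the GC correction alone 0.013 for Slc5a7. With the authors' factors as offsets it was -0.019 for Chrm3 and 0.0058 for Ache. In limma with pseudocounts of 1 and 0.1 it was -0.015 for Chrm3 in both, 0.017 for Slc5a7 in both and 0.010 for Ache in both. Leaving out each library gave -0.37 to 0.046 for Chrm2, -0.0099 to 0.061 for Chrm3, -0.066 to 0.15 for Chat, -0.091 to 0.050 for Slc18a3, -0.18 to 0.17 for Slc5a7 and -0.078 to 0.067 for Ache. Chrm1, Chrm4 and Bche stayed below 0 in all of these. A lone FDM library was assumed to vary like the controls.

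Of all genes, 281 were called, and 172 with DESeq2, 498 with no count filter, 1261 with the block, 439 with the block by label numbers, 1257 with the block and GC correction, and 146 to 944 when a library was left out (146 without Control 3, 165 without FDM 1, 550 without Control 2, 944 without Control 1). Among the 48 related genes, 0 were called in the main fit. With the block 4 were called, against 7.23% of all 17432 genes tested. With the block by label numbers it was 0, against 439 of 17432, and with the block and GC correction 5, against 1257 of 17432. Without a control it was 0 to 3, against 146 to 944 of 17432. With the authors' factors and in limma at either pseudocount 1 was called, Plcb2, against 293 to 332 of 17432. With no count filter 1 was called, Chrnd, against 498 of 24659. Without Control 1 the genes called were Chrna6, Gnai3 and Kcnc2, and without Control 2 Itpr1, Plcb4 and Sox2. The cause was not tested. In mouse 3, pairing by label numbers gave -0.59 for Chrm2, -0.34 for Slc5a7, 0.13 for Slc18a3 and 0.12 for Ache.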
